A study of Homo sapiens and Mus musculus with 12 samples.

Results

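Interferon-stimulated genes were followed in 2 settings in which ZNF280C, a zinc finger protein gene, or its mouse counterpart Zfp280c was reduced or removed. The 40 genes were taken by name from a written list of classical interferon targets, chosen with earlier results of these data known. All 40 were found among the 17383 genes of the mouse colon table, and 24 of 40 were found under the same names in upper case among the 15590 genes of the human cell table; the others were not analysed in human cells. The first setting was colon tissue of 12-week-old C57BL/6J mice, with 3 libraries of the Zfp280c knock-out genotype and 3 libraries of the wild-type genotype. The second was RKO, a human colon cancer cell line, carrying an inducible shRNA (shZNF280C) in every library, with 3 libraries grown for 72 hours with 1 ug/ml doxycycline and 3 without it. The labels do not say how the knock-out allele was made, in which cells it acts, which stretch of colon was taken, or whether the RKO cells were 1 clone. Induced and uninduced cells differ both in the drug and in the shRNA, and the effects of these cannot be told apart. The labels do not state whether replicates came from separate animals or cultures, so p-values measure the spread between these libraries only.

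Interferons are secreted proteins that warn cells of viral nucleic acid. Type I and type III interferons signal through JAK1 and TYK2 to a complex that holds STAT2 and IRF9, which binds the interferon-stimulated response element, a DNA motif, and switches on a broad set of antiviral genes. In the gut lining these genes are also kept at a basal level by signals from the intestinal contents. In bulk tissue, a lower level can come from fewer cells of a type or from less RNA per cell, and these cannot be told apart.

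The response element shows in the human promoters of the list. In RefSeq promoters of 300 bases (GRCh38.p14, 250 bases before and 50 after the start site), 27 of the 40 names were matched and 20 of the 27, or 74.1%, held the core GAAA, any 2 bases, GAAA on either strand. It occurred in 4.38% of 27305 gene symbols and in 3.57% of 35116 promoters, overlapping matches counted together. The gamma-activated core TTCNNNGAA, on either strand, was in 25.9% of the 27 and in 9.38% of all symbols. The lines show 1 match each for genes of different roles whose values are given later, written on the gene's strand, with the core in capitals (a core that starts with TTTC is the same core on the other strand). DTX3L and PARP9 are read in opposite directions from start sites at 122564338 and 122564300 of chromosome 3, and share a single match. No match says only that these letters are not in that window, as for STAT2, IRF9, CMPK2, HERC6, SAMD9L, IFI35 and XAF1.
IFIH1 (chr2:162318686-162318715, minus strand): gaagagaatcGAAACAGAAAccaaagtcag
IFIT1 (chr10:89392510-89392539, plus strand): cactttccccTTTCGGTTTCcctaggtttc
ISG15 (chr1:1013380-1013409, plus strand): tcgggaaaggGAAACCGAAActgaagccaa
OAS3 (chr12:112938321-112938350, plus strand): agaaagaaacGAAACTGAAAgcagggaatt
RSAD2 (chr2:6877622-6877651, plus strand): ctgtttcaacTTTCAGTTTCacatgtggaa
EIF2AK2 (chr2:37156967-37156996, minus strand): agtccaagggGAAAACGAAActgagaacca
BST2 (chr19:17405735-17405764, minus strand): ctgggaaactGAAACTGAAAacctaattaa
DTX3L (chr3:122564322-122564351, plus strand): ccagggaagcGAAACTGAAActttgcgccc
PARP9 (chr3:122564322-122564351, minus strand): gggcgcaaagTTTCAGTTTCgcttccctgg
PARP14 (chr3:122680800-122680829, plus strand): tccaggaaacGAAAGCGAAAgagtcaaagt
CXCL10 (chr4:76023699-76023728, minus strand): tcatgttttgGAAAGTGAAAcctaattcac
IFI27 (chr14:94110618-94110647, plus strand): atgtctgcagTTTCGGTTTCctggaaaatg
IFI44 (chr1:78649761-78649790, plus strand): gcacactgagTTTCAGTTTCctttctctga
LGALS3BP (chr17:78979962-78979991, minus strand): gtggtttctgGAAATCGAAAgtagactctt
RTP4 (chr3:187368357-187368386, plus strand): accgaacaccGAAACTGAAActgtttgtct

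The mouse values are FPKM (fragments scaled to transcript length and to the mapped reads of the library), and every triplet of values is given in the order of libraries 1, 2 and 3. Zfp280c itself was at 0.09, 0.09 and 0.22 FPKM in the knock-out libraries, against 2.48, 2.25 and 3.17 FPKM in the wild-type libraries. The wild-type libraries were not alike. Proximal HOX genes, whose level marks the position along the gut, summed to 38.0, 19.6 and 33.2 FPKM in knock-out colon and to 1.05, 33.4 and 0.58 FPKM in wild-type colon, while distal HOX genes summed to 8.93, 24.4 and 32.9 FPKM in knock-out colon and to 359, 27.3 and 601 FPKM in wild-type colon. By these genes wild-type library 2 stood with the 3 knock-out libraries and wild-type libraries 1 and 3 stood apart from all 4. Results in colon are therefore given with and without wild-type library 2. Epithelial markers were high in every library, at 10560 to 11570 summed FPKM in knock-out colon and 9050 to 11430 in wild-type colon, a sum carried by Krt8 and Krt19. Of the 8 markers 3 were called higher without wild-type library 2, against 9.21% of all genes in that fit. Among them Cdx2, an intestinal transcription factor gene, had 139.9, 151 and 144 FPKM in knock-out colon, against 81.2, 155 and 33.3 FPKM in wild-type colon.

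Across the list, 39 of 40 genes had a positive log2 fold change (knock-out over wild type, on log2(FPKM + 1)), against 44.6% of the 11366 genes tested, and all 40 passed the filter of a mean FPKM of at least 1. Mx2 and Cxcl9 passed it only through the knock-out libraries, with wild-type means of 0.73 and 0.76 FPKM. The median was 0.95 for the list, ranging from -0.32 for Ifi27 to 2.18 for Ifit2, and -0.02 for all genes. The list's median was 1.33 without wild-type library 2 and 0.604 without wild-type library 3. With all libraries, none of the differences passed the test: 0 of 40 members had a limma adjusted p under 0.05, as did 0.0% of all genes. The knocked-out gene Zfp280c was not called in this fit either (log2 fold change -1.67 ± 0.14, SE, limma adjusted p = 0.123). The absence of calls is therefore no evidence of equal levels. At an unadjusted p under 0.05, 27 were higher, against 6.02% of all genes, and 1, Ifi27, was lower, against 6.48%. The 3 knock-out values all exceeded the 3 wild-type values in 19 members, against 7.13% of all genes, and lay below them in Ifi27 only, against 9.79%. Mx2 and Cxcl9 were among the 27 and Cxcl9 among the 19, and given how they passed the filter neither adds support. Since the list was chosen with earlier results of these data known, its counts describe it and do not test it. Without wild-type library 2 (n = 3 and 2), 35 of 40 members were called higher, against 9.21% of the 11344 genes tested, and 0 were called lower, against 7.19%. The 5 not called were Ifitm3, Cxcl9, Cxcl10, Gbp2 and Ifi27. The wild-type libraries left in this fit, 1 and 3, were those set apart by HOX genes. Genotype and HOX position therefore cannot be told apart in it. Wild-type library 2 was above wild-type libraries 1 and 3 in 37 of 40 members, against 44.1% of all genes. The calls made without it are therefore no separate support for a genotype difference. Leaving out any other library gave no call. With the HOX position score as a covariate, 6 members were higher at an unadjusted p under 0.05, against 1.33% of all genes (Ifih1, Ifit1, Rsad2, Parp9, Parp14 and Dtx3l), 2 were lower, against 2.42% (Oas2 and Ifi27), 0 were called, and the median of the list was 0.17. The score rests on HOX genes alone, and beyond this fit the part of position in the differences was not tested.

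**Figure D1:**
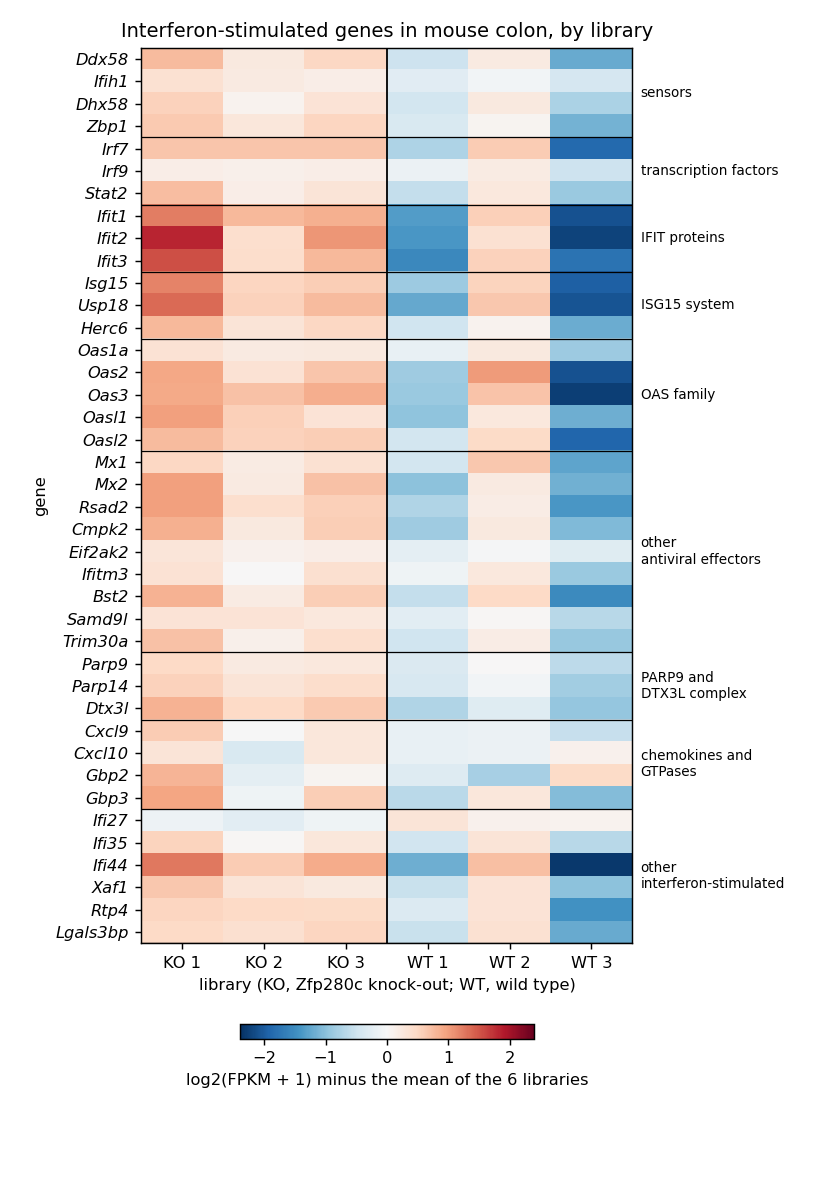
Each row is an interferon-stimulated gene and each column a mouse colon library, with colour for log2(FPKM + 1) minus the gene's mean over the 6 libraries, and rows grouped by role. Wild-type library 3 was lowest in 37 of 40 genes and knock-out library 1 highest in 33. Wild-type library 2 was above the other wild-type libraries in 37 genes, below all 3 knock-out libraries in 20 and within their range in 16.

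The sensors detect viral nucleic acid inside the cell. Ddx58, which encodes the RNA sensor RIG-I, had 15.2, 10.4 and 12.6 FPKM in knock-out colon, against 5.84, 10.2 and 3.16 FPKM in wild-type colon. Ifih1, encoding MDA5, which binds long double-stranded RNA, had 40.1, 35.8 and 34.6 FPKM in knock-out colon, against 25.2, 29.4 and 23.1 FPKM in wild-type colon. Neither gene's groups overlapped, though Ddx58 in wild-type library 2 came within a small margin of knock-out library 2. Zbp1, a sensor of left-handed nucleic acid that can trigger cell death, also had separate groups, with 75.4, 58.9 and 69.7 FPKM in knock-out colon, against 37.2, 50.7 and 21.6 FPKM in wild-type colon. Dhx58, whose product LGP2 modulates the other RNA sensors, had 23.3, 16.6 and 19.9 FPKM in knock-out colon, against 11.2, 18.7 and 8.86 FPKM in wild-type colon, so wild-type library 2 lay among the knock-out values. Log2 fold changes were 0.99 ± 0.35 (SE, n = 3 each, as for the others in colon) for Ddx58, 0.50 ± 0.11 for Ifih1, 0.95 ± 0.29 for Zbp1 and 0.64 ± 0.26 for Dhx58, each with a limma adjusted p of 0.396. All 4 were called without wild-type library 2, with log2 fold changes of 1.35, 0.59, 1.23 and 0.92 in the same order and limma adjusted p of 0.0142, 0.0117, 0.0153 and 0.0140.

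Among the transcription factors of the list, Irf7, the factor that amplifies type I interferon production, had the highest mean FPKM of all 40 genes at 253. Its values were 336, 339 and 337 FPKM in knock-out colon, against 126, 326 and 57.3 FPKM in wild-type colon. The knock-out libraries were almost equal, at 337 ± 1.58 FPKM (SD, n = 3), while the wild-type libraries spread over 169.6 ± 139 FPKM (SD, n = 3), and the groups did not overlap. Stat2, the STAT specific to type I and III signalling, had 33.1, 21.7 and 24.3 FPKM in knock-out colon, against 12.6, 23.3 and 10.0 FPKM in wild-type colon. For Irf9, the DNA-binding subunit of the complex, values were 28.2, 27.2 and 28.0 FPKM in knock-out colon, against 22.6, 28.9 and 17.4 FPKM in wild-type colon, with wild-type library 2 above all knock-out libraries. The log2 fold change of Irf7 was 1.33 ± 0.56 (SE; limma adjusted p = 0.396). All 3 genes were called without wild-type library 2, Irf7 at 1.98 ± 0.29, Stat2 at 1.14 ± 0.19 and Irf9 at 0.47 ± 0.12 (SE; limma adjusted p = 0.00828, 0.0116 and 0.0432).

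The IFIT proteins bind foreign RNA and block its translation, and their genes had some of the widest differences of the list. Ifit1 had 109, 78.7 and 83.1 FPKM in knock-out colon, against 17.3, 67.8 and 9.92 FPKM in wild-type colon. Ifit2 had 40.9, 14.6 and 23.5 FPKM in knock-out colon, against 3.49, 14.2 and 1.53 FPKM in wild-type colon. In both genes every knock-out value was above every wild-type value, with wild-type library 2 the nearest to the knock-out range. Ifit3, at 45.6, 20.2 and 26.3 FPKM in knock-out colon, against 4.44, 22.3 and 3.67 FPKM in wild-type colon, overlapped through that same library; mouse Ifit3 has a near-identical copy, Ifit3b, and how reads shared between them were counted is not given in the sources used here. Log2 fold changes were 1.91 ± 0.63 for Ifit1, 2.18 ± 0.68 for Ifit2 and 1.84 ± 0.64 for Ifit3 (SE; limma adjusted p = 0.396 each). They were 2.68 ± 0.24, 2.90 ± 0.42 and 2.57 ± 0.31 without wild-type library 2, and were called (SE; limma adjusted p = 0.00213, 0.00826 and 0.00467).

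ISG15 is a ubiquitin-like protein that is attached to other proteins, and USP18 removes it and also dampens the type I receptor. Isg15 had 253, 159 and 167 FPKM in knock-out colon, against 60.1, 162 and 27.7 FPKM in wild-type colon. Usp18 had 25.4, 14.1 and 16.4 FPKM in knock-out colon, against 3.42, 15.1 and 1.46 FPKM in wild-type colon. In both genes wild-type library 2 lay between the knock-out libraries and the other wild-type libraries lay below them all. Herc6, the main ligase for ISG15 in mice, had separate groups, with 15.8, 11.0 and 12.8 FPKM in knock-out colon, against 5.96, 9.36 and 3.27 FPKM in wild-type colon. Log2 fold changes were 1.53 ± 0.59 for Isg15, 1.77 ± 0.66 for Usp18 and 1.06 ± 0.32 for Herc6 (SE; limma adjusted p = 0.396 each), and 2.18, 2.53 and 1.37 without wild-type library 2 (limma adjusted p = 0.00954, 0.00502 and 0.0125).

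The OAS family makes the messenger that activates RNase L, an RNA-degrading enzyme, in response to double-stranded RNA, although the OAS-like protein encoded by Oasl1 acts in other ways. Oas3 had 43.6, 38.0 and 42.5 FPKM in knock-out colon, against 11.8, 37.4 and 3.95 FPKM in wild-type colon. Oasl2 had 161, 139 and 142 FPKM in knock-out colon, against 69.0, 129 and 24.5 FPKM in wild-type colon. Oasl1, whose product restrains Irf7 translation in mice, had 98.9, 73.9 and 62.3 FPKM in knock-out colon, against 24.9, 59.2 and 21.5 FPKM in wild-type colon. These 3 genes had groups that did not overlap, each by a narrow gap to wild-type library 2. Oas1a, which lies among near-identical paralogs and is uncertain for that reason, overlapped at 138, 126 and 129 FPKM in knock-out colon, against 96.4, 127 and 59.1 FPKM in wild-type colon. Oas2 differed from the rest in that wild-type library 2 held its highest value, with 16.8, 10.9 and 13.9 FPKM in knock-out colon, against 4.20, 18.0 and 1.20 FPKM in wild-type colon. The log2 fold change was 1.65 ± 0.67 for Oas3 and 1.25 ± 0.38 for Oasl1 (SE; limma adjusted p = 0.396 each), and without wild-type library 2 all 5 genes were called, from 0.79 ± 0.19 for Oas1a to 2.41 ± 0.36 for Oas3 (SE; limma adjusted p = 0.0384 and 0.00843).

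Of the other antiviral effectors, Rsad2, encoding viperin, which makes a chain-terminating nucleotide, had 26.9, 17.8 and 20.2 FPKM in knock-out colon, against 7.61, 15.0 and 4.37 FPKM in wild-type colon. Eif2ak2, encoding the kinase PKR, which halts translation on sensing double-stranded RNA, had 24.6, 21.5 and 22.6 FPKM in knock-out colon, against 16.7, 19.6 and 16.1 FPKM in wild-type colon. Samd9l, a restriction factor for poxviruses, had 62.4, 62.0 and 59.0 FPKM in knock-out colon, against 41.2, 50.5 and 30.9 FPKM in wild-type colon. The groups of these 3 genes did not overlap, and wild-type library 2 was the highest wild-type library in each. Their log2 fold changes were 1.30 ± 0.39, 0.37 ± 0.10 and 0.60 ± 0.17 in that order (SE; limma adjusted p = 0.396 each), and without wild-type library 2 they were 1.72, 0.45 and 0.76 (limma adjusted p = 0.00744, 0.0217 and 0.0116).

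The remaining antiviral effectors overlapped through wild-type library 2. Mx2, a dynamin-like GTPase gene, had 3.86, 1.85 and 3.0 FPKM in knock-out colon, against 0.24, 1.85 and 0.10 FPKM in wild-type colon, so that wild-type library 2 equalled knock-out library 2. Mx1, whose C57BL/6 allele gives no working protein, had 4.97, 3.85 and 4.48 FPKM in knock-out colon, against 2.11, 5.65 and 0.77 FPKM in wild-type colon, with its highest value in wild-type library 2. Cmpk2, a mitochondrial nucleotide kinase gene next to Rsad2, had 18.6, 11.7 and 15.4 FPKM in knock-out colon, against 5.07, 11.9 and 4.21 FPKM in wild-type colon. Wild-type libraries 1 and 3 were below every knock-out library in all 3 genes. Bst2, encoding tetherin, which holds budding virus at the membrane, had 57.3, 36.4 and 48.2 FPKM in knock-out colon, against 21.1, 44.8 and 10.4 FPKM in wild-type colon. Trim30a, a TRIM family gene, had 19.8, 13.0 and 16.0 FPKM in knock-out colon, against 8.17, 13.5 and 5.84 FPKM in wild-type colon. Ifitm3, encoding a membrane protein that blocks viral entry, had 40.8, 32.0 and 41.5 FPKM in knock-out colon, against 29.4, 38.1 and 16.5 FPKM in wild-type colon. Without wild-type library 2 all of these but Ifitm3 were called, with log2 fold changes from 1.11 ± 0.20 for Trim30a to 1.71 ± 0.23 for Mx2 (SE; limma adjusted p = 0.0145 and 0.00683), while Ifitm3 was at 0.75 ± 0.24 (SE; limma adjusted p = 0.0794). Mx2 passed the expression filter only through its knock-out values, with a wild-type mean of 0.73 FPKM, so its call adds no support. In the other calls of that fit genotype and HOX position cannot be told apart.

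The groups of all 3 genes of the PARP9 and DTX3L group did not overlap. DTX3L is a ubiquitin ligase that works as a complex with PARP9, an ADP-ribosyltransferase family protein, and PARP14 is a related enzyme. Dtx3l had 32.2, 25.1 and 28.1 FPKM in knock-out colon, against 10.3, 14.2 and 8.88 FPKM in wild-type colon. Its lowest knock-out value was 1.77 times the value in wild-type library 2, and its unadjusted p of 0.000217 was the lowest of the list (limma adjusted p = 0.396; log2 fold change 1.30 ± 0.18, SE). Parp14 had 34.1, 28.5 and 31.0 FPKM in knock-out colon, against 17.3, 21.8 and 12.4 FPKM in wild-type colon. Parp9 had 51.3, 42.6 and 43.9 FPKM in knock-out colon, against 28.3, 36.7 and 23.3 FPKM in wild-type colon. In both, the wild-type libraries kept the order 2, 1, 3 from high to low, all under the knock-out values. Without wild-type library 2 the log2 fold changes were 1.47 ± 0.13 for Dtx3l, 1.04 ± 0.15 for Parp14 and 0.81 ± 0.12 for Parp9 (SE; limma adjusted p = 0.00207, 0.00797 and 0.00896). With the position score as a covariate Dtx3l kept 0.92, Parp14 0.44 and Parp9 0.28 of log2 fold change, at unadjusted limma p of 9.3e-05, 0.00755 and 0.0293, and none was called.

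**Figure D2:**
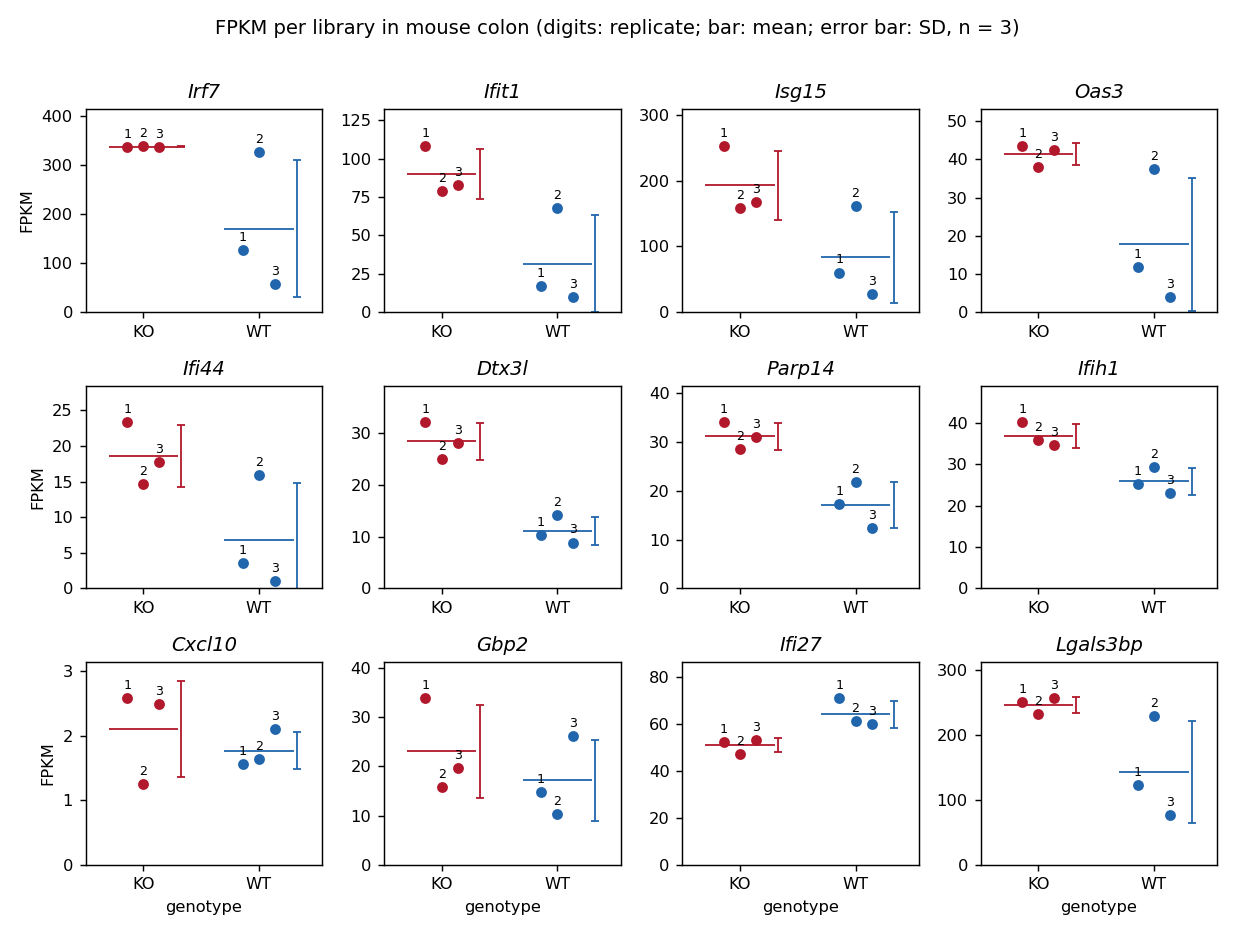
FPKM of 12 members in each mouse colon library, knock-out left and wild type right, with digits for replicate numbers, a bar for the mean and an error bar for the SD of 3 libraries (axes start at 0, where error bars that reach lower end). Wild-type library 2 lies near the knock-out libraries in Irf7, Ifit1, Isg15, Oas3, Ifi44 and Lgals3bp, clearly below them in Dtx3l and Parp14, and Ifi27 is lower in all knock-out libraries.

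Chemokines and guanylate-binding proteins respond strongly to interferon gamma as well as to type I interferon, and 3 of the 4 in the list were called in neither fit. Cxcl10, a chemokine that draws T cells, had 2.58, 1.25 and 2.49 FPKM in knock-out colon, against 1.57, 1.64 and 2.10 FPKM in wild-type colon, with no separation and with wild-type library 3 the highest of its group. Cxcl9, which acts on the same receptor, had 2.24, 1.13 and 1.59 FPKM in knock-out colon, against 0.89, 0.94 and 0.45 FPKM in wild-type colon. Both chemokines stood at the low end of the list, near the filter of 1. Gbp2, a guanylate-binding protein gene, had 33.8, 15.8 and 19.6 FPKM in knock-out colon, against 14.9, 10.4 and 26.2 FPKM in wild-type colon. It was the only one of the 40 in which wild-type library 2 was the lowest of the 6 libraries. Gbp3, of the same family, did follow the wider pattern, with 15.2, 6.84 and 11.6 FPKM in knock-out colon, against 4.39, 9.11 and 3.08 FPKM in wild-type colon. Log2 fold changes were 0.14 ± 0.21 for Cxcl10, 0.58 ± 0.20 for Cxcl9, 0.43 ± 0.38 for Gbp2 and 0.95 ± 0.39 for Gbp3 (SE; limma adjusted p = 0.767, 0.396, 0.616 and 0.396). Only Gbp3 of these 4 was called without wild-type library 2 (1.32 ± 0.30, SE; limma adjusted p = 0.0312).

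Of the remaining members, Ifi44, named for its induction by interferon, had 23.4, 14.6 and 17.8 FPKM in knock-out colon, against 3.50, 15.9 and 1.05 FPKM in wild-type colon. Lgals3bp, a secreted galectin-binding glycoprotein gene with the second highest mean of the list at 194 FPKM, had 249.8, 232 and 256 FPKM in knock-out colon, against 123, 229 and 76.1 FPKM in wild-type colon. Rtp4, a receptor transporter gene that is also antiviral, had 50.3, 48.6 and 48.3 FPKM in knock-out colon, against 27.3, 43.6 and 12.0 FPKM in wild-type colon. Lgals3bp and Rtp4 had separate groups, and Ifi44 overlapped through wild-type library 2. Xaf1, encoding a partner of the apoptosis inhibitor XIAP, had 12.9, 10.1 and 9.51 FPKM in knock-out colon, against 5.17, 10.2 and 3.53 FPKM in wild-type colon. Ifi35 had 52.1, 36.5 and 43.4 FPKM in knock-out colon, against 25.8, 44.5 and 22.1 FPKM in wild-type colon. Ifi27, which encodes a small membrane protein, ran the other way, with 52.5, 47.4 and 53.2 FPKM in knock-out colon, against 70.9, 61.1 and 60.2 FPKM in wild-type colon. Its groups did not overlap, and all 3 wild-type libraries lay above the knock-out range. The log2 fold change of Ifi27 was -0.32 ± 0.09 (SE; limma adjusted p = 0.396) and -0.35 ± 0.10 without wild-type library 2 (SE; limma adjusted p = 0.0637). The other 5 were called without that library, from 0.84 ± 0.16 for Ifi35 to 2.67 ± 0.34 for Ifi44 (SE; limma adjusted p = 0.0163 and 0.00536).

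Taking the wild-type libraries one by one, library 1 held a median of 47.6% of the knock-out mean over the 40 genes, library 2 held 82.8% and library 3 held 27.5%, where all genes tested had medians of 99.1%, 102% and 103% in the same order. The lowest single values were those of Mx2, at 8.27% in library 1 and 3.44% in library 3. These stand for 0.24 and 0.10 FPKM over a knock-out mean of 2.90 FPKM, so they are near the floor and uncertain. Library 3 was below library 1 in 38 of 40 members, against 44.3% of all genes, and was the lowest of the 6 in 37, against 26.0%. Both were below all 3 knock-out libraries and below wild-type library 2 in 37 members, against 22.0% of all genes; the exceptions were Cxcl10, Gbp2 and Ifi27. Wild-type library 2 was below all knock-out libraries in 20 members, against 18.0% of all genes. It was within their range in 16, against 50.9%, and above it in 4 (Irf9, Oas2, Mx1 and Ifi27), against 31.0%. It was under 2/3 of the knock-out mean in 5 genes, Ifit2, Mx2, Dtx3l, Cxcl9 and Gbp2, against 1.32% of all genes. Of these, Mx2 and Cxcl9 passed the expression filter only through the knock-out libraries, so their low wild-type share adds no support.

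**Figure D3:**
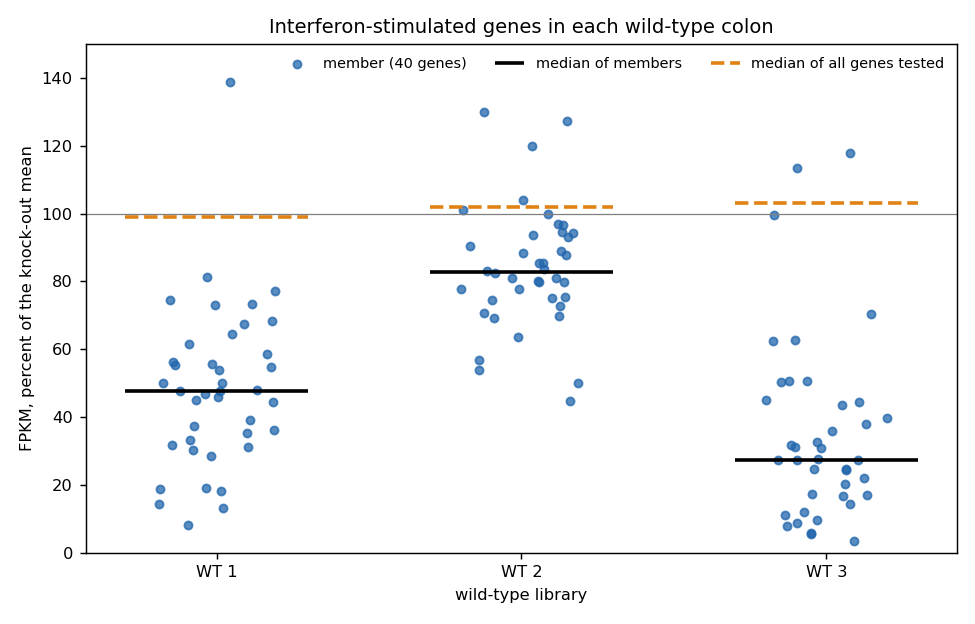
FPKM of the 40 members in each wild-type colon library as a percent of the knock-out mean, with a solid bar for the median of the members and a dashed bar for that of all genes tested. Members centred on 47.6%, 82.8% and 27.5% in libraries 1, 2 and 3, while all genes centred near 100.

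The knock-out libraries also differed among themselves. Their summed member FPKM was 2371, 1905 and 2041 in knock-out colon, against 1006, 1848 and 640 in wild-type colon. Knock-out library 1 was the highest of the 6 libraries in 33 members, against 15.6% of all genes. The order library 1, then 3, then 2 held in 31 members, against 28.8% of all genes. Irf7, Rtp4 and Samd9l were among the exceptions, with knock-out values close to each other.

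Of the genes upstream of these targets, 0 were called with all libraries, against 0.0% of all genes. Without wild-type library 2, 9.21% of all genes were called higher and 7.19% lower. With all libraries, the groups did not overlap in 7.13% of all genes on the higher side and in 9.79% on the lower side. The counts below are to be read beside these shares. Of 11 interferon ligand genes, 4 were in the table and none was tested, since the highest value of any was 0.14 FPKM. Among 6 receptor genes 0 were called with all libraries; without wild-type library 2, Ifngr1, a chain of the interferon gamma receptor, was called lower, with 153, 182 and 159 FPKM in knock-out colon, against 226, 159 and 208 FPKM in wild-type colon. Ifnar1, a chain of the type I receptor, had 11.5, 11.2 and 11.2 FPKM in knock-out colon, against 11.3, 11.9 and 10.4 FPKM in wild-type colon. The groups of Ifngr1 and Ifnar1 overlapped. Of 6 tested genes for other IRF factors, 0 were called in either fit; Irf1, a factor induced by interferon gamma, had 115, 104 and 103 FPKM in knock-out colon, against 98.0, 90.8 and 88.2 FPKM in wild-type colon, without overlap. Irf2, a related factor, ran the other way without overlap, by a narrow gap, with 34.1, 32.8 and 33.4 FPKM in knock-out colon, against 34.2, 34.5 and 44.6 FPKM in wild-type colon, and the median log2 fold change of the 6 genes was -0.06. Of 9 sensor adaptor and kinase genes, Ikbke, a kinase gene, Tlr3 and Trim25 were called higher without wild-type library 2. Tlr3, the endosomal receptor for double-stranded RNA, had 15.6, 13.5 and 15.3 FPKM in knock-out colon, against 9.70, 12.3 and 8.98 FPKM in wild-type colon, with separate groups. Trim25, the ligase that helps activate RIG-I, had 54.4, 60.1 and 53.9 FPKM in knock-out colon, against 35.8, 48.4 and 25.3 FPKM in wild-type colon, also with separate groups. Tbk1, another kinase gene, had 25.8, 24.7 and 26.6 FPKM in knock-out colon, against 23.2, 22.8 and 17.1 FPKM in wild-type colon. Its groups were separate too, but it was called in neither fit. Of 5 inhibitors only Socs3 was called, higher, without that library. It had 5.28, 5.55 and 4.99 FPKM in knock-out colon, against 3.59, 6.67 and 2.42 FPKM in wild-type colon. Wild-type library 2 thus held its highest value. Ptpn6, another inhibitor gene, was lower without overlap and called in neither fit, with 16.5, 14.4 and 16.7 FPKM in knock-out colon, against 17.3, 16.8 and 17.2 FPKM in wild-type colon.

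A wider list of 67 further interferon-stimulated genes, none of them among the 40, had 57 tested genes, of which 53 had a positive log2 fold change, against 44.6% of all genes, with a median of 0.46. Like the 40, it was chosen with earlier results of these data known, so its counts describe it and do not test it. Tgtp2 passed the expression filter only through its knock-out values, with a wild-type mean of 0.69 FPKM. With all libraries 0 were called. Without wild-type library 2, 27 were called higher, against 9.21% of all genes in that fit, and 1, Slfn2, lower, against 7.19%. Genotype and HOX position cannot be told apart in that fit. The groups did not overlap in 11 genes that were higher, against 7.13% of all genes, and in 1 that was lower, against 9.79%. The lower one was Ly6e, a membrane protein gene, with 121, 72.2 and 115 FPKM in knock-out colon, against 137, 150.4 and 122 FPKM in wild-type colon. Ifi204, a DNA sensor family gene, had 6.68, 3.60 and 4.94 FPKM in knock-out colon, against 1.28, 2.18 and 0.63 FPKM in wild-type colon. Tap1, which carries peptides for antigen presentation, had 35.6, 20.9 and 27.7 FPKM in knock-out colon, against 14.4, 20.2 and 12.3 FPKM in wild-type colon. Irgm1, an immunity-related GTPase gene, had 73.7, 48.9 and 55.4 FPKM in knock-out colon, against 26.6, 45.7 and 22.5 FPKM in wild-type colon. These 3 were among the 11, with wild-type library 2 the highest of its group in each.

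Markers of immune cells moved with these genes in part. Of 6 T cell markers 5 were in the table, and they summed to 19.4, 12.0 and 15.0 FPKM in knock-out colon, against 9.02, 13.7 and 4.38 FPKM in wild-type colon. Of 4 tested, 0 were called with all libraries, and Cd4 was under 1 FPKM throughout. Without wild-type library 2, 3 were called higher, against 9.21% of all genes in that fit. The 5 natural killer cell markers summed to 35.4, 20.9 and 25.1 FPKM in knock-out colon, against 6.91, 22.0 and 3.35 FPKM in wild-type colon. That sum was carried by the granzyme genes Gzma and Gzmb, which T cells also express, while the defining Ncr1 and Klrb1c and the lytic gene Prf1 were under 1 FPKM in every library. The 9 macrophage markers summed to 31.8 to 50.6 FPKM in knock-out colon and 41.8 to 67.6 in wild-type colon, and the 6 B and plasma cell markers to 53.9 to 95.6 in knock-out colon and 81.8 to 239 in wild-type colon. Of the 5 plasmacytoid dendritic cell markers, Siglech, Ccr9 and Il3ra were under 1 FPKM in every library. Tcf4 had 6.35, 6.62 and 6.32 FPKM in knock-out colon, against 6.37, 6.96 and 6.35 FPKM in wild-type colon. Irf8 had 31.7, 21.6 and 27.15 FPKM in knock-out colon, against 18.95, 23.4 and 20.2 FPKM in wild-type colon. Both overlapped. The 4 adipocyte markers summed to 32.5 to 104 FPKM in knock-out colon, against 6.07 to 19.6 FPKM in wild-type colon. Without wild-type library 2 the 3 tested were called higher, as were Gzma and Gzmb. Of the 3, Adipoq had a wild-type mean of 0.507 FPKM. Cd14 of the macrophage markers, Cd79b of the B and plasma cell markers and Pecam1 of the endothelial markers were called lower, against 7.19% of all genes. So was Ly6g of the neutrophil markers, at 3.20, 8.75 and 6.28 FPKM in knock-out colon, against 189, 8.55 and 268 FPKM in wild-type colon. The other 4 neutrophil markers were under 1 FPKM in every library. Of 4 goblet cell markers, Fcgbp and Clca1 were called lower and Muc2 higher. Acta2 and Cnn1 of 5 smooth muscle markers were called higher. The part of T cells, granzyme-expressing cells, fat, the other cell types and position along the colon in the level of the interferon-stimulated genes was not tested.

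**Figure D4:**
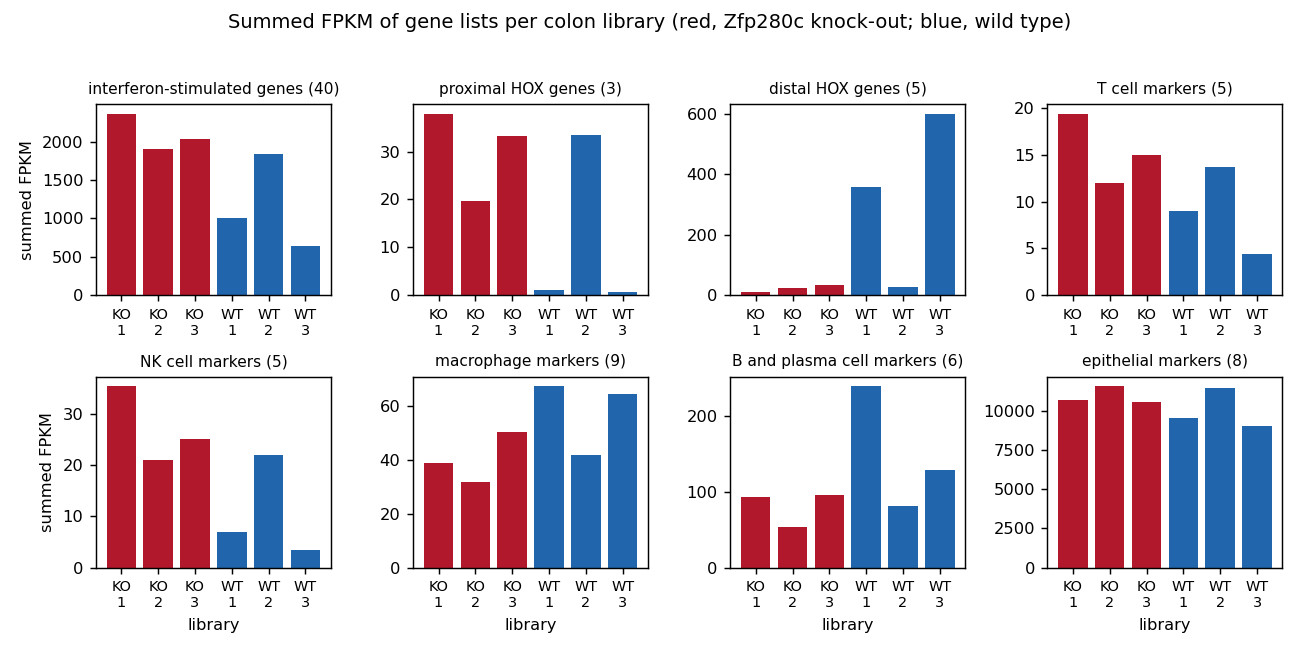
Summed FPKM of 8 gene lists in each colon library, knock-out in red and wild type in blue, with the number of genes summed in brackets. The interferon-stimulated genes, proximal HOX genes and T and natural killer cell markers were low in wild-type libraries 1 and 3 and not in wild-type library 2, while distal HOX genes were high in those 2 libraries.

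In RKO cells the comparison asked whether the same genes differ once the shRNA is induced. The deposited values are called signal here, since their sums do not match the unit in the file's name, and levels are not compared between genes. The epithelial genes EPCAM, KRT8, KRT18, VIL1 and CDX2 had signal in every library. ZNF280C signal fell to 101 ± 22.1 with doxycycline, against 197 ± 27.5 without it (SD, n = 3 each; log2 fold change -0.98 ± 0.15, SE, limma adjusted p = 0.0276); the adjusted p was 0.0621 to 0.0922 without doxycycline replicate 2 or 3 or any untreated replicate and 0.0769 with libraries that share equal values as a block, a fit that called 0 genes. Of the 24 members in the table, 0 were called higher, against 0.385% of all 15590 genes, and 0 were called lower, against 0.757%. At an unadjusted p under 0.05 in limma, CMPK2 was higher, against 6.82% of all genes, and EIF2AK2 was lower, against 10.2%. These were also the only members whose groups did not overlap, against 8.66% of all genes higher and 13.3% lower. Log2 fold changes (doxycycline over no doxycycline, on log2(signal + 1)) were positive in 14 of 24 members, against 44.9% of all genes, with a median of 0.007 and a range from -0.15 to 0.37. The median of all genes was -0.01.

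CMPK2, the nucleotide kinase gene described for the colon, had a signal of 39.6, 46.1 and 49.8 with doxycycline, against 31.3, 36.0 and 36.9 without it. The 3 induced libraries lay above the 3 uninduced ones, by 0.37 ± 0.11 on the log2 scale (SE; limma adjusted p = 0.137). EIF2AK2, the PKR gene, had a signal of 1250.5, 1224 and 1287 with doxycycline, against 1326, 1341 and 1369 without it. Its induced libraries were all lower, by a log2 fold change of -0.10 ± 0.04 (SE; limma adjusted p = 0.181). LGALS3BP signal was 54.6, 85.9 and 54.2 with doxycycline, against 43.1, 48.2 and 59.9 without it (log2 fold change 0.34 ± 0.18, SE; limma adjusted p = 0.377). One induced library stood well above the other five, and the groups overlapped.

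Several members with separate or widely spread values in colon had overlapping values in RKO cells. ISG15 signal was 270.0, 283 and 273 with doxycycline, against 252, 251 and 279 without it (log2 fold change 0.08 ± 0.06, SE; limma adjusted p = 0.505). IFIT2, at 7.67, 8.95 and 6.74 with doxycycline, against 7.87, 8.95 and 9.43 without it, and IFIT3, at 9.47, 9.78 and 14.5 with doxycycline, against 10.9, 11.6 and 11.9 without it, were overlapping. DTX3L signal was 244, 256 and 238 with doxycycline, against 240.2, 242 and 229 without it (log2 fold change 0.05 ± 0.05, SE; limma adjusted p = 0.672). STAT2 had 493, 533 and 480.0 with doxycycline, against 449.9, 470 and 489 without it (log2 fold change 0.10 ± 0.05, SE; limma adjusted p = 0.396). In each of these genes the induced and uninduced values overlapped. IFI27, lower in knock-out colon by the values given before, was at 123, 133 and 105 with doxycycline, against 119, 105 and 108 without it (log2 fold change 0.12 ± 0.09, SE; limma adjusted p = 0.564). OAS3 signal was 755, 879.6 and 867 with doxycycline, against 835, 816 and 846 without it. IFITM3 signal was 829.7, 858 and 831 with doxycycline, against 888, 835 and 837 without it, and BST2 signal was 2334, 2668 and 2332 with doxycycline, against 2489, 2302 and 2513 without it. The groups of these 3 genes overlapped, and the sign of their log2 fold changes (-0.0005, -0.02 and 0.004) turned under other settings. Whether the colon and RKO differences differ from each other was not tested, since the tables were normalized separately and come from different species.

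Of the pathway genes around them in RKO cells, SOCS1, an inhibitor of JAK signalling, rose, with a signal of 29.0, 27.7 and 29.3 with doxycycline, against 16.1, 19.2 and 18.7 without it (log2 fold change 0.65 ± 0.11, SE; limma adjusted p = 0.0382). PARP10, an ADP-ribosyltransferase gene, rose as well, with 229, 243 and 238 with doxycycline, against 194, 199 and 198 without it (log2 fold change 0.26 ± 0.05, SE; limma adjusted p = 0.0455). These were the only calls, 1 of 4 inhibitors and 1 of 30 further interferon-stimulated genes; 0 of 6 receptors, 0 of 4 IRF factors and 0 of 8 sensor adaptors and kinases were called. Exactly equal values were shared by doxycycline replicate 2 and untreated replicate 2 in 310 genes and by doxycycline replicate 3 and untreated replicate 1 in 526 genes, and with such pairs as a block SOCS1 and PARP10 were not called (limma adjusted p = 0.215 and 0.250). Neither was called with the GC trend removed (limma adjusted p = 0.0818 and 0.174) or when any 1 library was left out (limma adjusted p from 0.0764 to 0.150 over both genes).

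**Figure D5:**
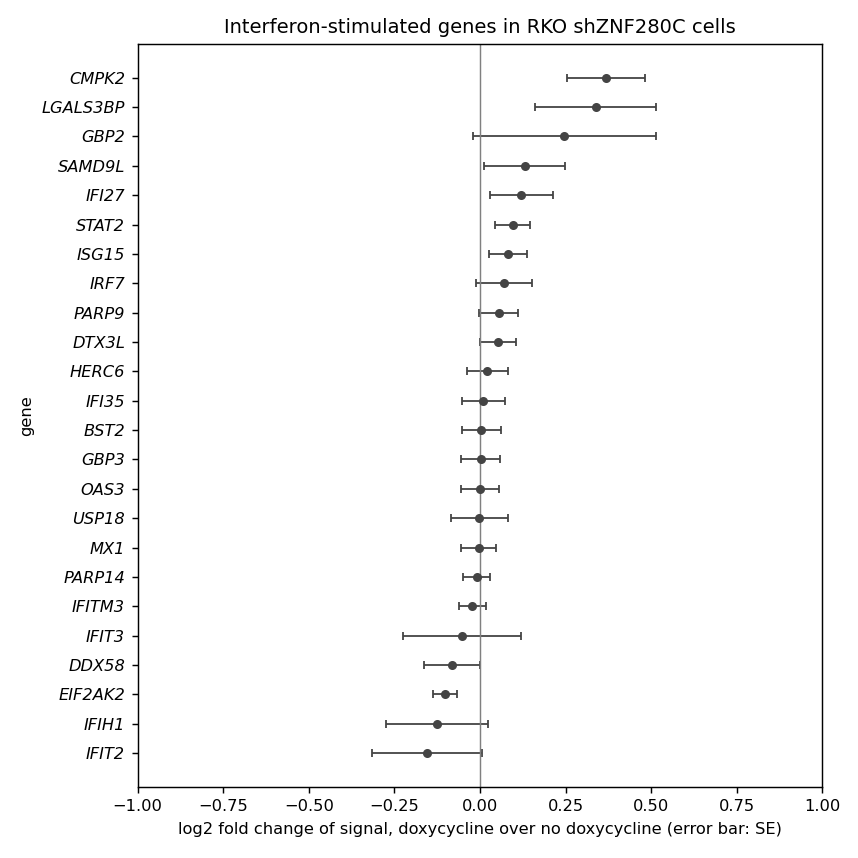
Log2 fold change of signal, doxycycline over no doxycycline, for the 24 members in RKO cells, with error bars for the SE (n = 3 libraries per group). The values run from -0.15 for IFIT2 to 0.37 for CMPK2, and none passed the test.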

How the data were processed

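Poly(A)-selected RNA was sequenced from 12 libraries, 3 per group. Per the submitters' processing notes, the tools were HISAT, Bowtie2, HTSeq and edgeR, with no versions, and hg19 was the only build named; a mouse build is not given in the sources used here. Mouse values are deposited as FPKM, per the file headers. The RKO values are deposited as FPKM after ComBat by their file name, but their library sums of 9050161 to 9195211 contradict FPKM, so they are treated as signal made by the authors in a way not stated; the test planned for FPKM was kept. Depth is unknown for both, so no counting interval can be given. No per-sample column was left unused.

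Each table was analysed alone. Values were taken as log2(value + 1), which understates the change of low genes; genes with a mean of at least 1 were kept (11366 in colon, 15590 in RKO), and limma 3.58.1 (R 4.3.3, variance trend) tested the difference between groups. Called genes had an adjusted p (Benjamini-Hochberg, over the whole table) below 0.05. For the targeted genes, a two-sided exact permutation test gave 0.1 in both settings, its smallest possible p. The position score is the mean log2 of 3 proximal minus that of 5 distal HOX genes. The procedure was tested on simulated data. Members and lists were chosen with earlier results of these data known. Per-library values were due for the 4 members of each role with the lowest unadjusted p, every member with a negative colon fold change, and in RKO the 6 lowest p and 4 highest means; pathway lists were due as counts with up to 4 genes of lowest p named. The other colon members, Ifnar1, Slfn2, Ly6e and Cdx2 in colon, and IFIT2, IFIT3 and DTX3L in RKO were chosen after their values were seen. One pathway gene is not reported here. Alternatives were other pseudocounts, minimum means, scalings, robust variance, blocks, the position score and leaving out each library; GC trend removal was added after the data were seen. Mouse positions and mouse sequences are not given here.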

Additional observations from a re-analysis of the deposited data

How the results depend on the processing

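In colon, the counts of called genes and members stayed at 0 under all alternatives except leaving out wild-type library 2: leaving out 1 library at a time gave 0 to 1861 genes, 0 to 35 members, and log2 fold changes of Zfp280c of -1.75 to -1.57 (called only without wild-type library 2, at -1.75). With the position score as a covariate the members' median was 0.172 and the sign turned for Irf9 (-0.0728), Oas1a (-0.0226), Oas2 (-0.428), Mx1 (-0.334), Ifitm3 (-0.108), Bst2 (-0.0415), Ifi35 (-0.0487), Ifngr1 (0.0108), Jak1 (0.131), Tyk2 (-0.0133), Socs3 (-0.273), Ptpn2 (0.0148) and Ifnar1 (-0.0827). Jak2 turned to -0.00437 under quantile normalization; leaving out 1 library it ran from -0.0623 to 0.0573, and Ifnar1 from -0.0366 to 0.0551. At a minimum mean of 5, 36 members and not Zfp280c were tested. In RKO, 178 genes were called (60 higher, 118 lower). Whether the replicate numbers pair the samples is not stated. Same-number correlations of -0.453 to 0.151 in colon and -0.531 to 0.0811 in RKO are too few to settle it. The replicate block left 1 RKO gene, 0 colon genes, and ZNF280C at -0.978 (limma adjusted p = 0.0991). A block of libraries sharing equal values left 0 genes and ZNF280C at -0.978 (adjusted p = 0.0769). Of the 13133 genes with a GC content, 214 were called with the GC trend kept and 88 with it removed, and leaving out 1 library 1 to 24 genes, with ZNF280C at -1.13 to -0.817, not called without doxycycline replicate 2 or 3 or any untreated replicate. Calls split 59 higher and 67 lower at equal sums, 69 and 62 under quantile normalization and 72 and 59 under median centring. OAS3 turned to 0.00953, 0.0300 and 0.0129 under these scalings, IFITM3 to 0.00528 under quantile normalization and BST2 to -0.0268 with the GC trend removed. Leaving out 1 RKO library at a time, OAS3 ran from -0.0406 to 0.0693, IFITM3 from -0.0387 to 0.00620, BST2 from -0.0606 to 0.0365 and IFIT3 from -0.232 to 0.0490. No RKO member was called under any alternative. The causes were not tested.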
